A study of Mus musculus with 22 samples.

Results

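H3K27me3, the histone mark laid down by Polycomb repressive complexes, was examined here at the places of the genome where it was called in neurons and in no progenitor of the developing mouse neocortex. Peaks of the 5 H3K27me3 lists that shared at least 1 bp were merged. Of the 13700 merged regions, 9836 were autosomal and 5150 of those held a peak of the neuron list. The N-only regions, 920 in number, were the autosomal ones met by the neuron list and by none of the other 4 lists, with every peak below 10000 bp. They were 17.9% of the autosomal regions with a neuron peak. The members were thus chosen by their H3K27me3 peak calls, so the H3K27me3 widths and scores below are descriptions. H3K4me3, the mark of active and poised promoters, played no part in the choice.

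The cells were purified from C57BL/6JOlaHsd mice. Neuroepithelial cells (NEC), the founder progenitors, came from stage E9.5. The other 4 cell types came from stage E14.5. They were neurons (N), the progenitors of the basal position named basal radial glia (bRG), and apical radial glia in a proliferative (aRG-P) and a neurogenic (aRG-N) population. Each cell type and mark had 2 samples, called technical replicates for aRG-N H3K27me3, and each group gave 1 peak list called on combined samples. No value therefore has a spread between replicates, no difference between cell types was tested, and read depth is unknown. Intervals below are exact (Clopper-Pearson) 95% intervals over regions, which cover counting error only. The neuron H3K27me3 list was made from reads extended by 200 bp and the aRG-P list from a file with a set excluded, per the peak names, and the part of these steps in the N-only calls was not tested.

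As background, Polycomb repressive complexes hold genes of other lineages and other developmental stages silent, and H3K27me3 is the mark that a reader subunit of the complex binds when the mark spreads along chromatin. During cortical development neural progenitors pass from a proliferative to a neurogenic state and then leave the cell cycle as neurons, and Polycomb activity is known to take part in the timing of these steps. Where H3K27me3 and H3K4me3 peaks fall together the site is often called bivalent, a state described at promoters of developmental genes. Peak lists from pooled cells cannot show whether both marks sat in the same cells. Positions are 1-based in mouse build mm9, the build the file headers give. No mm9 gene annotation or genome was used here, so regions carry positions without gene names or sequence.

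Most N-only regions were short and scored low within the neuron list. Each of the 920 was a single neuron peak. Their widths ran from 290 to 8733 bp with a median of 845 bp, against a median of 2649 bp for the other 4528 autosomal neuron peaks. A width of 290 bp was the smallest in the list, and 58 N-only regions and 45 other peaks had it. In all, 553 N-only regions were under 1000 bp wide and 83 reached 2000 bp. Together they covered 975 kb, which was 4.47% of the 21809 kb under autosomal neuron peaks. The first deposited score, whose meaning could not be settled, had a median of 17.5 in N-only regions and 24.5 in the other autosomal neuron peaks. The lowest score in the whole neuron list was 15.035 and belonged to an N-only region, and the highest N-only score was 40.3. Only 81 of the 920 (8.80%) reached the median score of the neuron list.

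**Figure D1:**
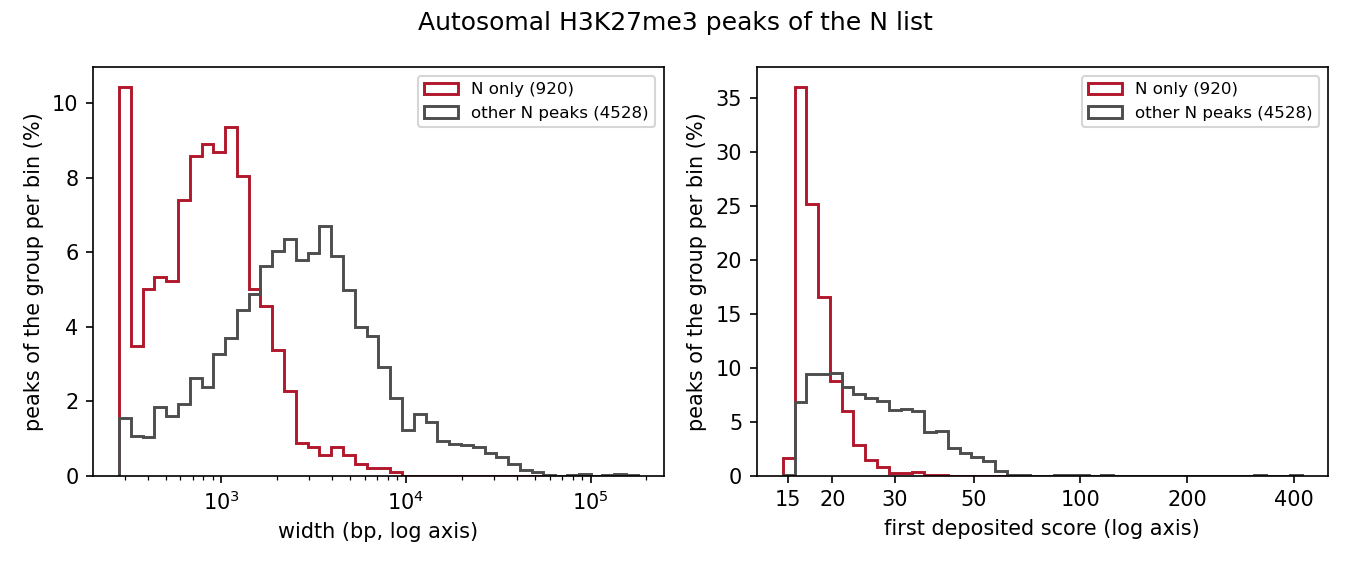
Histograms of width in bp (left, log axis) and of the first deposited score (right, log axis) for autosomal H3K27me3 peaks of the N list, as the percent of each group per bin. N-only peaks (red, 920) sit at smaller widths (median 845 bp against 2649 bp) and lower scores (median 17.5 against 24.5) than the other peaks (grey, 4528), with a separate bar at the smallest width of 290 bp.

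The rule turns on a single shared base pair, and members lay close to its edge on both sides. The nearest inside was a region on chromosome 8 from 94048184 to 94049463, which lay 1 bp from an NEC peak. Next came regions on chromosome 14 (33188107 to 33189014) and chromosome 16 (72771193 to 72771874), 5 and 9 bp from an aRG-P peak. Just outside were neuron regions on chromosome 7 (25133744 to 25136520), chromosome 8 (117036100 to 117039922) and chromosome 1 (173322286 to 173325306), whose neuron peaks shared 6, 13 and 17 bp with a progenitor peak. Within 100 bp of a progenitor peak lay 22 members, and 29 other neuron regions below 10000 bp shared under 100 bp. The width limit removed no region, the longest autosomal N-only region being 8733 bp. By the same rule 1815 regions were NEC-only, 1469 aRG-N-only, 560 aRG-P-only and 106 bRG-only, or 32.4%, 24.8%, 13.5% and 3.57% of the autosomal regions of each list.

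Of the 10 longest N-only regions, 9 carried no H3K4me3 in any list, near the 79.6% found over all 920. The longest, on chromosome 14 from 122799978 to 122808710 (8733 bp), also had the second highest score, 37.3, and no H3K4me3 peak in any list. Its nearest H3K27me3 peaks were 9635 bp away in aRG-N, 16503 bp in bRG, 24993 bp in aRG-P and 40498 bp in NEC. The region next in length, on chromosome 3 from 34549141 to 34556540 (7400 bp), carried H3K4me3 in all 5 lists. The fold enrichment given by the authors' peak caller for the highest H3K4me3 peak in it was 35.5 in the NEC list and 6.29 in the N list. It was 11.1, 13.0 and 8.27 in the lists of aRG-P, aRG-N and bRG. Within their own lists the NEC and N values stood at percentiles 88.7 and 26.5, and lists of different make do not allow a change to be read from them. Progenitor H3K27me3 began 2897 bp away in NEC, 3122 bp in aRG-P and 3517 bp in bRG, but 312199 bp away in aRG-N. This region was 1 of 4 N-only regions within 23030 bp, and neuron H3K4me3 covered 15% of it.

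Other long members differed in how near H3K27me3 of other lists lay. On chromosome 3 from 131148357 to 131154985 a region of 6629 bp with a score of 36.1 lay 103398 bp from the nearest progenitor peak and 109120 bp from any other neuron peak. A region of 7158 bp on chromosome 10 (119851101 to 119858258) lay 7098 bp from an aRG-P peak, with NEC and aRG-N peaks 210687 and 210280 bp away, and 4346 bp from another neuron peak. A region of 6614 bp on chromosome 17 (24968107 to 24974720) lay 6807 bp from NEC, 7286 bp from aRG-P and 9420 bp from aRG-N peaks. A region of 5366 bp on chromosome 3 (34338439 to 34343804) had no progenitor peak within 101497 bp. On chromosome 2 from 105556863 to 105562109 a region of 5247 bp lay 25306 bp from the nearest progenitor peak. Among members over 50000 bp from progenitor H3K27me3, the longest with H3K4me3 in all 5 lists were on chromosome 5 (3339410 to 3343970, 4561 bp) and chromosome 1 (14296629 to 14300949, 4321 bp). The first had no listed progenitor H3K27me3 peak within 1411891 bp. The lists hold peaks near transcripts, so distances and chains, here and below, refer to the listed peaks only. Of the peak numbers up to the highest in each H3K27me3 list, 26.5% (bRG) to 36.6% (aRG-N) were absent, and 33.2% in the N list.

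The 10 highest scores included regions from the shortest to the longest. The highest score, 40.3, belonged to a region of 645 bp on chromosome 9 (42751518 to 42752162) with H3K4me3 in all 5 lists. A region of 1624 bp on chromosome 2 (75541455 to 75543078, score 35.2) also had H3K4me3 in every list, and neuron H3K4me3 covered 85.2% of it. Its nearest progenitor H3K27me3 peak was 539731 bp away. Among the 10 highest scores, 3 regions had the smallest width of 290 bp, on chromosome 10 (36716993 to 36717282), chromosome 6 (51414445 to 51414734) and chromosome 11 (29633534 to 29633823). None of these 3 carried H3K4me3 in any list.

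Most N-only regions held no H3K4me3 peak of any list. In 732 of 920 regions (79.6%, interval 76.8 to 82.1%) no list had an H3K4me3 peak, against a background of 33.4% of the other autosomal neuron regions. Each N-only region is 1 neuron peak. Each other neuron region is a merged region that includes progenitor peaks, and H3K4me3 in any part of it was counted. The part of this difference in the contrasts here and below was not tested. Another 90 (9.78%) had H3K4me3 in all 5 lists, against 34.2%. Of the 188 regions with H3K4me3 in at least 1 list, 90 thus had it in every list and 186 had it in NEC. Among the other neuron regions 2795 of 2819 had it in NEC, a share near that of the N-only regions. The share with H3K4me3 was 20.2% in NEC (interval 17.7 to 23.0%) and 12.2% in N (10.1 to 14.46%), against 66.1% and 42.1% of the other neuron regions. For aRG-P, aRG-N and bRG the N-only shares were 12.3%, 15.8% and 13.3%, against 42.3%, 47.9% and 40.6%. In both groups of regions the NEC share was the highest, and the NEC H3K4me3 list is also the longest of the 5.

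**Figure D2:**
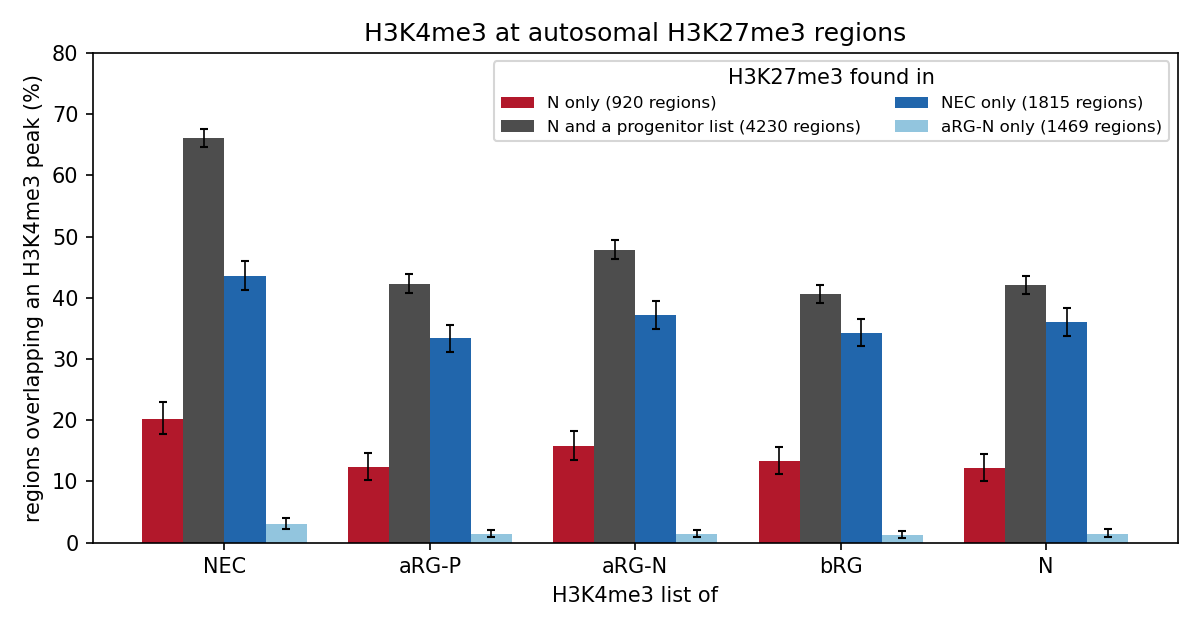
Percent of autosomal H3K27me3 regions that overlap an H3K4me3 peak of each list, with exact 95% intervals for counting error. N-only regions (red) lie between 12.2 and 20.2%, below regions shared by N and a progenitor (grey, 40.6 to 66.1%) and NEC-only regions (dark blue, 33.4 to 43.6%) and above aRG-N-only regions (light blue, 1.23 to 2.995%) in every list.

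The contrast with the other neuron regions depended on width, which for those regions is the width of the merged region, progenitor peaks included. Among regions under 1000 bp, 12.7% of the 553 N-only regions (interval 10.002 to 15.7%) and 15.4% of 104 others (9.06 to 23.8%) had H3K4me3 in N, a difference within counting error. From 1000 to below 2000 bp the shares were 10.2% of 284 and 29.8% of 530, and from 2000 to below 10000 bp 15.7% of 83 and 47.1% of 3000, with intervals apart. H3K4me3 in the other regions was more frequent in each wider class, and in the N-only regions the intervals of the 3 classes overlapped (6.95 to 14.3% and 8.61 to 25.3% for the middle and the widest). Weighted to the widths of the N-only regions, the share of the others was 22.7%, still above 12.2%. For NEC H3K4me3 the shares under 1000 bp were 21.7% (interval 18.3 to 25.4%) and 36.5% (27.3 to 46.6%). Against other neuron regions below 10000 bp, in each of 4 score classes the N-only share in N was also lower, from 8.80% against 25.5% below a score of 17 to 25.6% against 50.3% at 22 and above.

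Among regions of a single list, those of neurons and those of neurogenic apical glia differed in H3K4me3. Of the aRG-N-only regions 833 of 1469 were under 1000 bp, and of the N-only regions 553 of 920. The aRG-N-only regions had H3K4me3 in at least 1 list in 46 of 1469 cases (3.13%, interval 2.30 to 4.15%), against 20.4% (17.9 to 23.2%) of N-only regions. The aRG-P-only regions had it in 8 of 560 (1.43%) and the NEC-only regions in 833 of 1815 (45.9%). The 106 bRG-only regions had it in 24 (22.6%, interval 15.1 to 31.8%), a share that overlaps that of N-only regions. Under 1000 bp, H3K4me3 in N was found at 1.08% of 833 aRG-N-only regions and 12.7% of N-only regions. These shares come from lists that were called separately, and the part of the calling in them was not tested.

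A small set of N-only regions had H3K4me3 in every progenitor list and not in neurons. These were 15 regions, a share of 1.63% against a background of 2.36% of the other neuron regions. Counted over the 105 N-only regions with H3K4me3 in all 4 progenitor lists, the 15 were 14.3% (interval 8.22 to 22.5%). The same share was 6.46% (5.29 to 7.80%) of 1548 other neuron regions and 2.34% (1.25 to 3.97%) of 555 NEC-only regions. It was 13.3% (1.66 to 40.5%) of 15 aRG-N-only and 9.09% (1.12 to 29.2%) of 22 bRG-only regions. Both of these intervals overlap that of the N-only regions. Only 3 aRG-P-only regions had H3K4me3 in all 4 progenitor lists. Over 9921 autosomal H3K4me3 regions of all 4 progenitor lists without neuron H3K27me3 it was 1.14%. Among N-only regions with H3K4me3 in exactly 4 lists, the absent one was N in 15, aRG-P in 8, bRG in 6 and neither NEC nor aRG-N in any. Among such other neuron regions it was N in 100, bRG in 89, aRG-P in 60, aRG-N in 19 and NEC in 6. N was thus the most frequent absent list in both groups. A wider region can meet an H3K4me3 peak more easily, so these shares also depend on width.

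The 5 longest of the 15 lay at different distances from neuron H3K4me3. On chromosome 15 from 98859650 to 98861690 (2041 bp) the H3K4me3 fold enrichment was 23.2 in the NEC list, and the lists of aRG-P, aRG-N and bRG gave 8.99, 9.30 and 5.60. The nearest neuron H3K4me3 peak was 43027 bp away. On the same chromosome from 103195857 to 103197733 (1877 bp) the values were 36.0, 8.14, 11.1 and 7.25, with neuron H3K4me3 25134 bp away. This region also held the tenth highest score of all members, 28.8. On chromosome 14 from 52947502 to 52949190 (1689 bp) they were 35.0, 8.57, 11.1 and 4.31, and neuron H3K4me3 lay 11172 bp away. At the other 2 a neuron H3K4me3 peak ended just beside the region. It lay 59 bp away on chromosome 14 (47380708 to 47382607, 1900 bp) and 52 bp away on chromosome 4 (35103029 to 35104077, 1049 bp). Of all 15, 6 had neuron H3K4me3 within 2000 bp and 8 within 5000 bp.

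The reverse was found once. A single N-only region had H3K4me3 in N and none in any progenitor list, on chromosome 4 from 128561839 to 128562149 (311 bp, fold enrichment 6.34), against a background of 0.189%. H3K4me3 in NEC and in no other list marked 36 regions (3.91%, against a background of 14.7%). In 39 regions (4.24%) H3K4me3 was present in aRG-N and not in N, and in 6 (0.652%) present in N and not in aRG-N. In the other neuron regions these counts were 382 (9.03%) and 137 (3.24%), so both shares were lower in N-only regions.

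At the 90 regions with H3K4me3 in all 5 lists, the strength of that mark was compared within each list. In the aRG-N list the median fold enrichment was 12.1 at the 90 N-only regions, 9.20 at 1448 other neuron regions and 14.9 at 8631 H3K4me3 regions without H3K27me3 in any list. In the NEC list the values were 26.1, 17.7 and 28.6 in the same order. In aRG-P they were 8.997, 7.71 and 11.1, and in bRG 8.02, 6.73 and 10.6. In the N list they were 7.03, 7.25 and 9.63. In each progenitor list, where by the rule the N-only regions carried no H3K27me3 peak, their median lay between those of the 2 other groups, with quartiles that overlapped both. In aRG-N, for example, the quartiles were 9.28 to 14.2, against 6.98 to 11.4 and 11.4 to 17.8. In the N list the N-only and the other neuron regions, which both carried H3K27me3 there, had medians close together with quartiles of 5.52 to 8.53 and 6.07 to 8.81. Each of the other neuron regions met at least 1 progenitor H3K27me3 list. The part of H3K27me3, or of region width, in these medians was not tested.

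**Figure D3:**
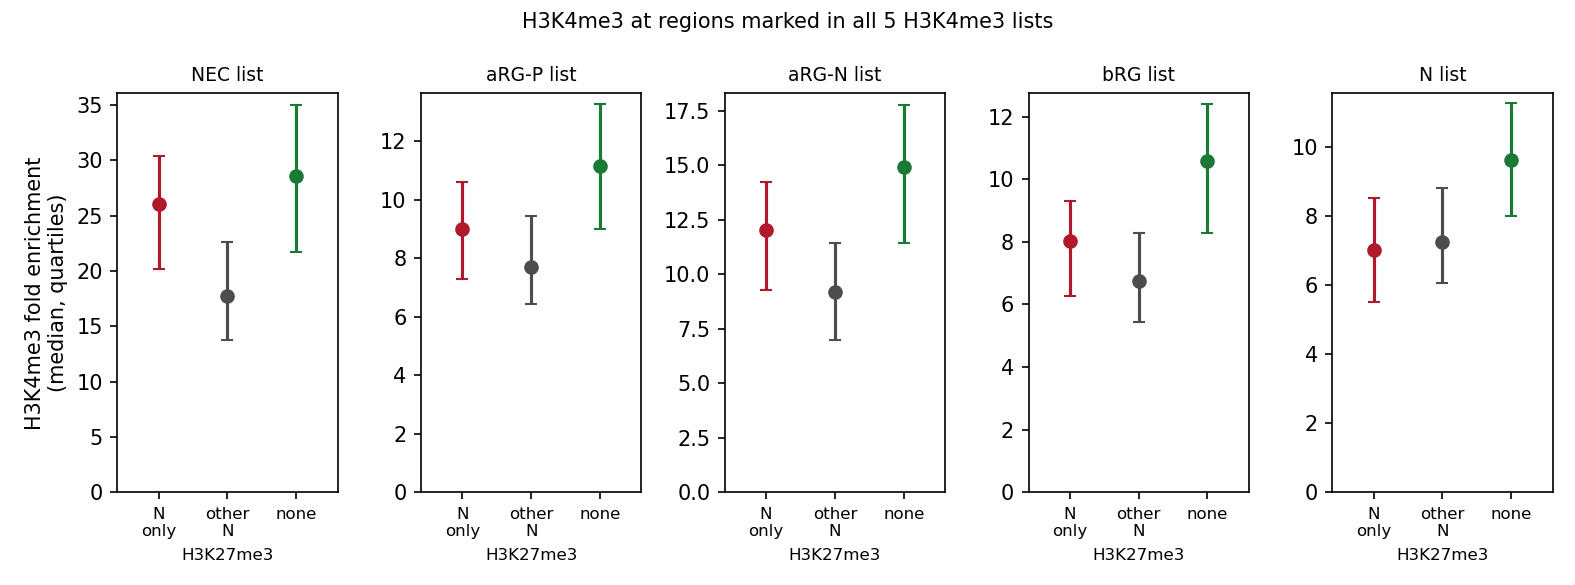
H3K4me3 fold enrichment (points, medians; bars, quartiles) at autosomal regions with H3K4me3 in all 5 lists, in 1 panel per list with its own axis: N-only H3K27me3 regions (red, 90), other neuron H3K27me3 regions (grey, 1448) and H3K4me3 regions without H3K27me3 (green, 8631). In the 4 progenitor lists the red median lies between grey and green, and in the N list it lies at 7.03 beside grey at 7.25.

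Among those 90, the 5 with the highest neuron fold enrichment were 538 to 1946 bp wide, and none had another member within 50000 bp. The same was true of 83 of the 90. On chromosome 2 from 79476025 to 79477079 the neuron fold enrichment was 11.3, at percentile 84.1 of the list, and the nearest progenitor H3K27me3 peak was 173248 bp away. A region on chromosome 8 (107871020 to 107871875) had the same neuron value and lay 1916 bp from an NEC H3K27me3 peak. On chromosome 2 from 59449696 to 59450414 the value was 10.7, and on chromosome 16 from 84774868 to 84775405 it was 10.45 with neuron H3K4me3 over 100% of the region. Over all 90, neuron H3K4me3 covered a median of 41.4% of the region. Their median distance from progenitor H3K27me3 was 93032 bp, against 9584 bp for the 732 regions without H3K4me3.

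H3K4me3 was more frequent at members far from progenitor H3K27me3. Of the 920, 332 (36.1%) lay within 5000 bp of a progenitor H3K27me3 peak and 298 lay over 50000 bp from any. The share under 5000 bp from an H3K27me3 peak of another list was 34.1% of aRG-P-only, 38.7% of bRG-only and 41.5% of aRG-N-only regions. It was 14.8% of NEC-only regions. The N-only share thus lay within the range of the other single-list groups of stage E14.5. In the distant set H3K4me3 was present in NEC at 35.6% (interval 30.1 to 41.3%) and in N at 23.8% (19.1 to 29.1%). In the near set, under 5000 bp, the shares were 14.2% (10.6 to 18.4%) and 9.04% (6.18 to 12.6%). Between 5000 and 50000 bp they were 11.4% and 3.79%. Median widths were 822.5 bp at 50000 bp or more and 827 bp under 5000 bp. In NEC-only regions, by distance from H3K27me3 of any other list, shares were higher, from 20.1% in N under 5000 bp to 43.8% at 50000 bp or more. In aRG-N-only regions the corresponding N shares were 0.657% and 3.06%. They were 7.32% of 41 and 37.1% of 35 bRG-only regions, and 1.05% of 191 and 0% of 180 aRG-P-only regions.

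**Figure D4:**
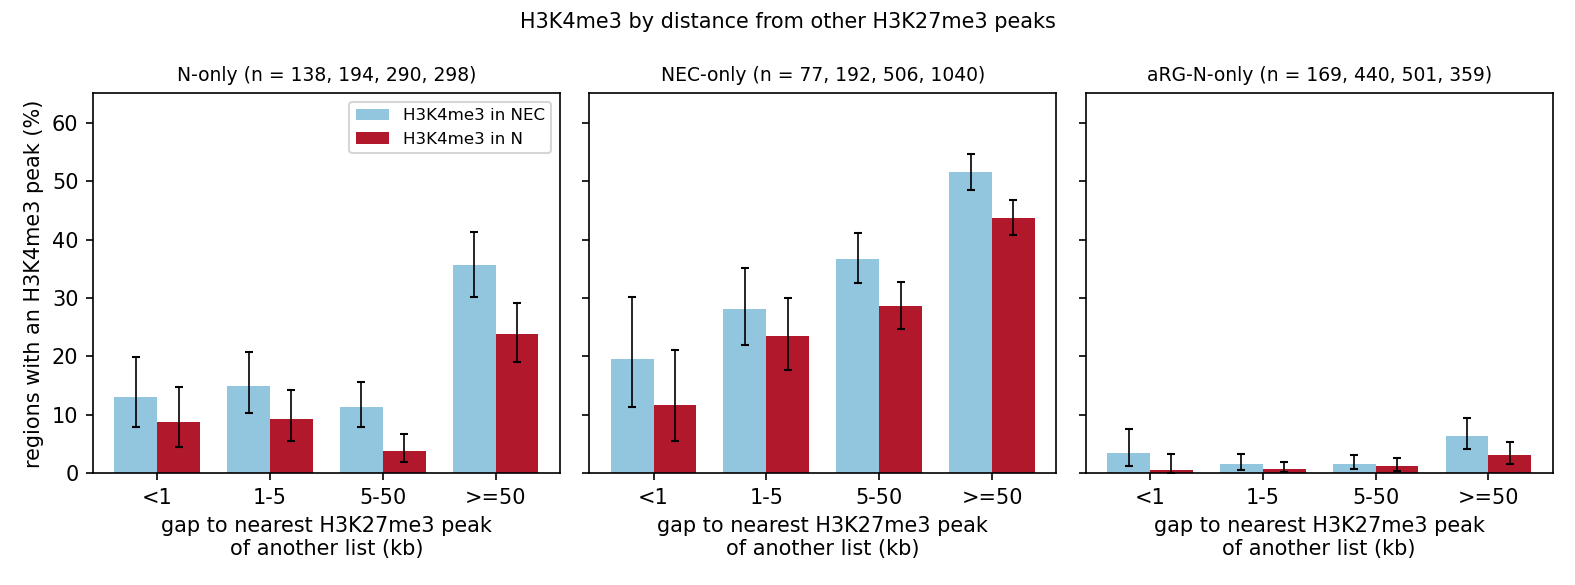
Percent of single-list H3K27me3 regions with an H3K4me3 peak in NEC (blue) or N (red), by the gap in kb to the nearest H3K27me3 peak of another list, with exact 95% intervals. In N-only regions the N share is 23.8% at 50 kb or more and at most 9.28% in each nearer class.

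Near members lay beside progenitor peaks of both kinds, shared with neurons and not. Of the 332, the nearest progenitor peak was itself met by a neuron peak in 150 and by none in 182. That nearest peak had a median width of 1208.5 bp. Progenitor peaks lay within 5000 bp on both sides of 60 members. By list, 230 members lay within 5000 bp of an aRG-N peak, 150 of an aRG-P peak, 113 of a bRG peak and 111 of an NEC peak. Another neuron peak, member or not, lay within 5000 bp of 322. On the autosomes aRG-N has 6165 peaks, NEC 5798, aRG-P 4634 and bRG 3387, and the part of list length in these counts was not tested.

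N-only regions also lay near each other. Chained across gaps of up to 50000 bp, 339 (36.8%, interval 33.7 to 40.1%) had another N-only region nearby, and 581 stood alone. The same share was 42.5% of aRG-N-only and 33.5% of NEC-only regions, 10% of the 560 aRG-P-only and 9.43% of the 106 bRG-only regions. The sets held 920 N-only, 1469 aRG-N-only and 1815 NEC-only regions, and the part of set size in these shares was not tested. There were 24 chains of 4 or more, holding 126 members. The aRG-N-only regions formed 33 such chains with 155 regions and the NEC-only regions 27 with 141. The aRG-P-only and bRG-only regions formed none. H3K4me3 was present in at least 1 list at 29.3% of the lone members (interval 25.6 to 33.1%), 7.51% of those in chains of 2 or 3 (4.35 to 11.9%) and 1.59% of those in chains of 4 or more (0.193 to 5.62%). These intervals count each member as independent, although members of a chain lie together, so they do not cover the spread between chains. Both members with H3K4me3 in the large chains belonged to the chromosome 3 chain around the region of 7400 bp described above. Of the 24 chains, 21 had no H3K4me3 peak of any list anywhere in their span.

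The chains were groups of small peaks spread over long stretches. The largest, on chromosome 11 from 44453364 to 44550767, had 11 members over 97404 bp, of which they covered 11.2%. Among them lay 5 further neuron peaks, with 5 bRG, 3 aRG-N and 1 aRG-P peak and none of NEC. A chain of 10 on chromosome 2 (105104480 to 105173895) held 1 further neuron peak, 1 aRG-P and 1 bRG peak, and none of NEC or aRG-N. A chain of 8 on chromosome 4 (150729786 to 150829196) held 2 aRG-N peaks and 1 aRG-P peak. Another chain of 8, on chromosome 7 from 57414791 to 57515984, had no progenitor peak in its span, the nearest being 8200 bp away. A chain of 5 on chromosome 10 (9364262 to 9390643) was denser, its members covering 43.8% of 26382 bp.

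**Figure D5:**
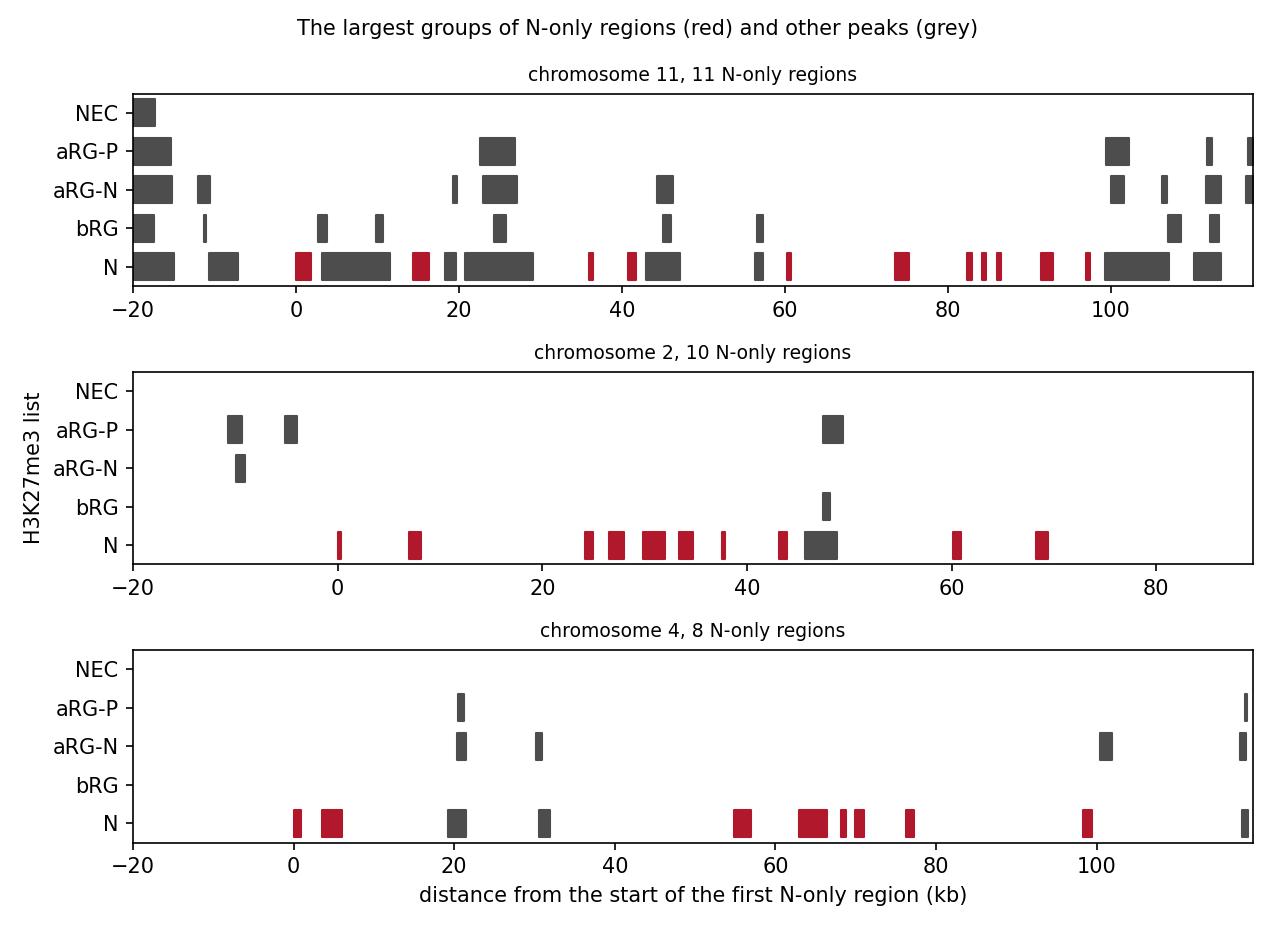
H3K27me3 peaks of the 5 lists along the 3 largest chains, by distance in kb from the start of the first N-only region; N-only regions are red and all other peaks grey. The 11, 10 and 8 N-only regions lie among 5, 1 and 2 other neuron peaks, and NEC has no peak within any of the 3 spans.

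Over the 24 chains, NEC had a peak within the span of 3, against 12 for aRG-P and 11 each for aRG-N and bRG. Of the chains, 15 held a progenitor peak of any list and 14 a further neuron peak. A second chain on chromosome 11, from 43799660 to 43874665, had 6 members among 8 bRG, 8 aRG-N and 7 aRG-P peaks. Another there, of 5 members, ran from 44726540 to 44806959 and ended in a region of 5385 bp. The window of 1 Mb with the most members, chosen after the values were seen, was on chromosome 11 from 44000001 to 45000000 with 18. The next, on chromosome 2 from 105000001 to 106000000, had 15.

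Chromosome 14 had the largest share of N-only regions. They made up 70 of its 233 neuron regions (30.04%, interval 24.2 to 36.4%), against 17.9% over all autosomes and 21.6% on chromosome 6, the next. The lowest share was 12.2% on chromosome 15. Of the 70, 2 (2.86%) had H3K4me3 in N, against 12.2% of all members and 4.81% to 29.2% on the other autosomes. Of the 70, 13 lay in chains of 4 or more, so large chains held a minority of them. Chromosome 11 had the most members, 104, with 30 in such chains and 5 with neuron H3K4me3.

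How many progenitor lists a neuron region met varied widely. Of the 4230 other autosomal neuron regions, 2205 met all 4 progenitor lists, 785 met 3, 617 met 2 and 623 met a single one. That single list was aRG-N for 280, NEC for 230, aRG-P for 64 and bRG for 49. The count of N-only regions would rise from 920 to 1303 with the aRG-N list left out before merging, and to 993 and 974 without aRG-P and bRG. With NEC peaks still merged but allowed in a region, the count was 1142. In lists cut by score to 3476 peaks each, the length of the bRG list, it was 353. That cut counted chromosome X peaks, so autosomal lengths were not made equal. In the full lists 5798 of 9460 NEC peaks and 5448 of 5734 N peaks were autosomal. Among neuron peaks at or above the median score the count was 81.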

How the data were processed

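H3K4me3 and H3K27me3 were profiled by chromatin immunoprecipitation in 10 groups of 2 samples, with 2 pooled Input samples that were not analysed here. Build mm9 and the tools MACS2, bedtools and Bowtie 1.0.0 are given per the submitters' processing notes. Per the file headers and peak names, the 10 deposited lists hold peaks near transcripts, 1 list per group, called on combined samples. Each deposited H3K4me3 peak has the authors' fold enrichment, a ratio, and its −log10 q value. The authors' H3K27me3 value, of unsettled meaning, was treated as a score. Both were used within a list only, except in the lists cut to equal length. Depth is unknown.

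Peaks were merged at 1 bp of overlap and a mark was called present where a peak overlapped the region, with pandas 2.3.3, scipy 1.17.1 and numpy 2.4.6 under Python 3.11.15 (plots: matplotlib 3.10.9). Lists without replicates allowed no test. Named regions were the 10 longest, the 10 of highest score, the 5 longest (or of highest neuron fold enrichment) of each H3K4me3 class, the 3 largest chains, the 3 on each side of the rule's edge and the 5 longest over 50000 bp away. Other single regions were chosen after their values were seen. Members, comparisons and settings were chosen with earlier results of these data known. The selection code was checked on the real lists with simulated peaks planted in them. All 200 planted neuron peaks were recovered and all 200 regions given a 1 bp overlap were dropped, among 5934 peaks. The rule fixes these outcomes, so they check the code and not how reliable the N-only calls are. Alternatives to the overlap rule, list length, score and H3K4me3 threshold were run.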

Additional observations from a re-analysis of the deposited data

How the results depend on the processing

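Of 30 alternative settings over 7 results, 14 kept the value within 1.5 times (counts) or within its interval (shares), and 16 moved it. The 920 regions became 588 with no progenitor peak allowed within 5000 bp and 81 at or above the median neuron score. They became 353 in lists cut to equal length with chromosome X peaks counted. The share with H3K4me3 in N, 12.2%, became 20.3% with a peak within 2000 bp, 25.9% at or above the median score and 17.7% for members with no other within 50000 bp. For the other neuron regions, 42.1% became 39.1% at a −log10 q of at least 5, 46.5% within 2000 bp, and 22.7% or 31.6% when weighted to the widths or scores of the N-only regions. It stayed above the N-only share in each setting run for both. The share without H3K4me3 in any list, 79.6%, became 73.5% within 2000 bp. The share near a progenitor peak, 36.1%, became 22.3% within 2000 bp, 45.4% within 10000 bp and 31.8% for the E14.5 progenitor lists. The share near another member, 36.8%, became 30.8% within 20000 bp and 42.4% within 100000 bp. Allowing a wider or narrower distance, or fewer lists or peaks, moves a count or a share near a peak by construction. For the shares with H3K4me3 in subsets of members or under weighting, the cause was not tested. Leaving out the aRG-P, aRG-N or bRG list, the score weighting, leaving out members of 300 bp or less and leaving out chained members were added after seeing the data. No paired analysis was possible because each list combines the samples of its group, and no replicate could be left out. With depth unknown, an absent peak does not show an absent mark.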

Other observations

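On chromosome X, which the rule leaves out, 22 regions held a neuron H3K27me3 peak and none of a progenitor list.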
